A study of Mus musculus with 9 samples.

Results

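Germinal center B cells without Foxo1, sorted with no regard to zone, were compared with the midpoint of the light zone (LZ) and the dark zone (DZ) of wild-type germinal centers. The midpoint is the average, with equal weight, of the LZ mean and the DZ mean on the log2(FPKM + 1) scale, FPKM being a fragment count scaled to transcript length and library size. The comparison used all 9 RNA libraries of the series, 3 per group. It was made for the 9524 of 22977 genes with a mean FPKM of at least 1 over the 6 wild-type libraries, a filter that read no Foxo1-deficient value.

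All sequenced cells were donor B cells from spleens of C57BL/6 recipients. Both donors carried ERT2cre(KI/+), a recombinase that works once tamoxifen is present, and B1-8hi(KI/+), an antibody heavy chain gene that gives high affinity for the hapten NP. The control donor was Foxo1(+/+) and CD45.1/1, the other Foxo1(f/f) and CD45.1/2, and recipients got equal parts of each. NP-CGG in alum was given on day 0 and oral tamoxifen on days 7, 8 and 9, so the wild-type cells had the recombinase and the drug as well. On day 12, about 10000 cells per library were taken that were B220+, NP+, GL7+ and low in CD38. Wild-type cells were split into CD86hi CXCR4lo cells (LZ) and CD86lo CXCR4hi cells (DZ), while Foxo1(f/f) cells, called Foxo1-deficient or deficient below, had no zone gate. Genotype and gate therefore change together, and wild-type cells outside both zone gates were not sequenced. The labels give Foxo1(f/f) cells a CD45.1/2 genotype but a gate without CD45.2, a conflict that the labels do not settle. No age is named, and nothing says that replicates are from separate animals. The p-values therefore reflect only how much these libraries vary, which may be technical.

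Foxo1 is a forkhead transcription factor that the PI3K and Akt kinases move out of the nucleus when a B cell receives antigen or T cell signals. In germinal centers it is known for keeping cells in the dark zone state, partly through the chemokine receptor Cxcr4. Division and antibody gene mutation belong to the dark zone, while cells compete for antigen and T cell help in the light zone. A sample of whole germinal center cells would hold both zones, which is why a midpoint rather than a single zone serves as the reference here. A level above or below both zone means cannot be reached by averaging the zone means with any weight.

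Relative depth, estimated from the confidence intervals in the files, was 0.817 in deficient replicate 3 and 0.939 to 1.093 in the other libraries. Across the tested genes, Pearson's r between replicates was 0.858 to 0.869 for LZ libraries, 0.908 to 0.913 for DZ libraries and 0.858 to 0.903 for deficient ones, a description only since genes are not independent. Deficient replicate 3 stood apart in the number of tested genes listed at exactly 0, which was 537 there and 125 to 281 elsewhere. A listed 0 can be a failed estimate, so genes with zeros are given by library. Unless stated otherwise, levels are FPKM as mean ± SD (n = 3), differences are deficient minus midpoint on the log2(FPKM + 1) scale with their standard error (SE), and adjusted p-values come from limma, with the Benjamini-Hochberg method over all 9524 genes. A gene is called where its adjusted p is under 0.05.

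Foxo1 itself (chromosome 3, 52072259 to 52154031, mm9) was at 14.8, 18.7 and 22.1 in LZ, at 24.5, 19.5 and 19.1 in DZ, and at 3.01, 1.79 and 0.81 in the deficient libraries. Every deficient library was below every wild-type library, as the genotype labels imply. The difference from the midpoint was -2.92 (SE 0.26, adjusted p = 0.00209, limma), and it was called under all 23 alternative settings. At a pseudocount of 1 this was the largest fall among the called genes, while at 0.1 it was -3.49 and 6 of the named genes, led by Gstt1 at -5.42, had larger falls. The sources used here do not say which stretch of it is removed. The related factors did not pass. Foxo3 was at 1.38, 1.60 and 1.47 in deficient cells with a difference of 0.35 (adjusted p = 0.719, limma), and Foxo4 at 2.37 ± 1.18 with a difference of 0.51 (adjusted p = 0.535).

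The markers of the sorted cells were present in all groups. The 12 markers of germinal center B cells summed to 1759.8 to 2400.9 FPKM in the wild-type libraries and to 2298.2 to 2696.2 in the deficient ones. Bcl6, the main regulator of the germinal center, was at 84.3 ± 9.15 in deficient cells, against 60.1 ± 7.58 in LZ and 58.6 ± 10.5 in DZ (0.51, adjusted p = 0.153). Cd38, whose protein was low by the sort, was at 3.11 ± 1.88 in deficient cells against 5.9 ± 1.71 and 2.7 ± 0.182 (-0.38, adjusted p = 0.618). Among T cell markers, Cd3e, Cd3g and Cd4 were at 0 in all 9 libraries. The 15 summed to 43.2 to 70.6 in wild type and 27.0 to 36.4 in deficient cells. Cd2 and Lck, which B cells can express too, made up most of that sum. Cd2, an adhesion receptor of lymphocytes, was at 35.66, 21.86 and 32.43 in LZ, at 41.3, 33.14 and 22.59 in DZ and at 12.93, 6.34 and 10.53 in deficient cells, where it fell (-1.57, SE 0.26, adjusted p = 0.0198, limma), a call kept in 4 of the 9 fits without 1 library (adjusted p up to 0.0742). Lck, a kinase of the T cell receptor, was at 10.81 to 27.36 in wild type and 14.65 to 24.76 in deficient cells.

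Some genes of other blood cells were higher in the deficient libraries. The 22 macrophage and dendritic cell markers summed to 49.9 to 98.1 in wild type and 214.0 to 359.8 in deficient cells, and 14 of the 22 were above every wild-type library in all 3 deficient ones. Csf1r, C1qa, C1qc, Vcam1, Tyrobp and Marco were at 0 in all 6 wild-type libraries, and Marco in the 3 deficient ones too. The 15 neutrophil markers summed to 2.3 to 6.5 against 91.2 to 145.3, with 4 of 15 above every wild-type library. S100a8 and S100a9 made up most of the deficient sums. Of the 15, 12 were at 0 throughout wild type, and 4 of these were at 0 in all 9 libraries. Others of the 12 were not seen in every deficient library, such as Ngp and Camp (replicate 2 only) and Ltf (replicates 2 and 3). The 13 erythroid and platelet markers summed to 13.2 to 44.8 against 172.6 to 553.4, with 5 of 13 above every wild-type library. Gata1, Pf4, Ppbp and Itga2b were at 0 in wild type, and Pf4 and Ppbp in the 3 deficient libraries too. The 14 stromal and follicular dendritic cell markers summed to 8.0 to 19.5 against 14.2 to 22.5. None of them was above every wild-type library in all 3 deficient ones. Of the 14, 10 were at 0 in wild type, such as Col1a1, Pdgfrb and Cxcl13, and 6 of these in all 9 libraries. Among all 9524 tested genes, 583 (6.12%) had the 3 deficient libraries outside the wild-type range, in either direction. That share is a rough scale only, since 3, 1, 2 and 3 members of these lists, in the order named, were tested. Deficient replicate 3 was highest for macrophage and erythroid markers. In bulk RNA, fewer cells of a type and less RNA per cell cannot be told apart.

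**Figure D1:**
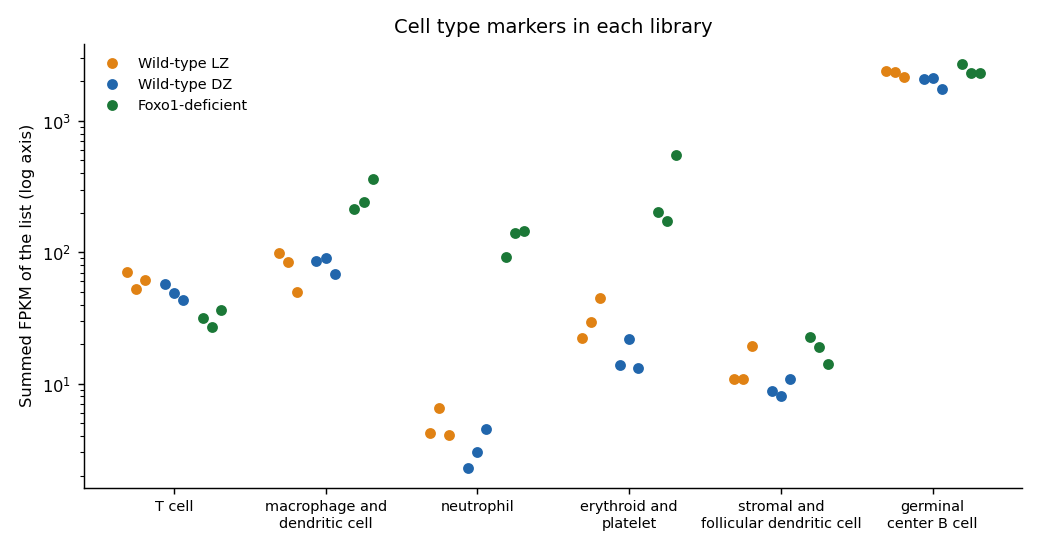
Summed FPKM of each cell type marker list (log axis) in the 9 libraries, 1 point per library, for wild-type LZ, wild-type DZ and Foxo1-deficient cells. The deficient libraries lie above the wild-type ones for macrophage and dendritic cell, neutrophil, and erythroid and platelet markers, below them for T cell markers, and overlap them for stromal and germinal center B cell markers.

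Against the midpoint, 114 of 9524 genes were called (1.2%), of which 53 were higher (0.556%) and 61 lower (0.64%) in deficient cells. At an unadjusted p under 0.05 in limma there were 1316 of the 9524, 731 higher and 585 lower. Counts of list members at that level, given below, are to be read beside these. Among the called genes that rose, the absolute log2 difference ran from 0.56 to 4.02, with a median of 1.32. Among those that fell it ran from 0.65 to 2.92, with a median of 1.37. It was 1 or more for 37 of the rises and 45 of the falls. Over all tested genes the median difference was 0.038, and 53.9% of differences were positive. Rises made up 46.5% of the calls, but 56.2% of 194 calls under quantile normalization and 33.0% of 215 calls under median centring, which kept 108 and 113 of the 114.

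The calls depended on single libraries. Without deficient replicates 2 and 3 the count was 37 and 40, without DZ replicates 1 and 2 it was 45 and 44, and without LZ replicates 1 and 2 it was 75 and 70. The 53 rises became 19, 18 and 17 without deficient replicates 1, 2 and 3 and 27 and 23 without DZ replicates 1 and 2. The 61 falls became 19 and 23 without deficient replicates 2 and 3, 18 and 21 without DZ replicates 1 and 2, and 37, 32 and 40 without LZ replicates 1, 2 and 3. Of the 114 genes, 23 stayed called without each of the 9 libraries in turn, 11 higher and 12 lower. The 11 were Beta-s, Hbb-b2, Pla2g7, Emid1, Coro2b, AI848285, Lmo2, Fam55b, Cr2, Mpeg1 and Psap. The 12 were Foxo1, Gstt1, A130040M12Rik, Gm14446, Krt222, Foxp1, Fcer2a, Bach2, Shisa5, Man1a, Gcet2 and Mif. Each of the 114 had the same sign in every leave-one-out fit, which their choice from these same libraries largely fixes. Of the 45 called genes that the naming rule gives, 25 lost their call with the wild-type libraries as 1 group. In that fit the zone difference counts as spread, so genes that differ between zones lose calls easily, while the differences stay the same. Of the same 45 genes, 23 lost their call with the zones averaged before the log, 15 without the intensity trend and 13 with LZ weighted 0.75.

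**Figure D2:**
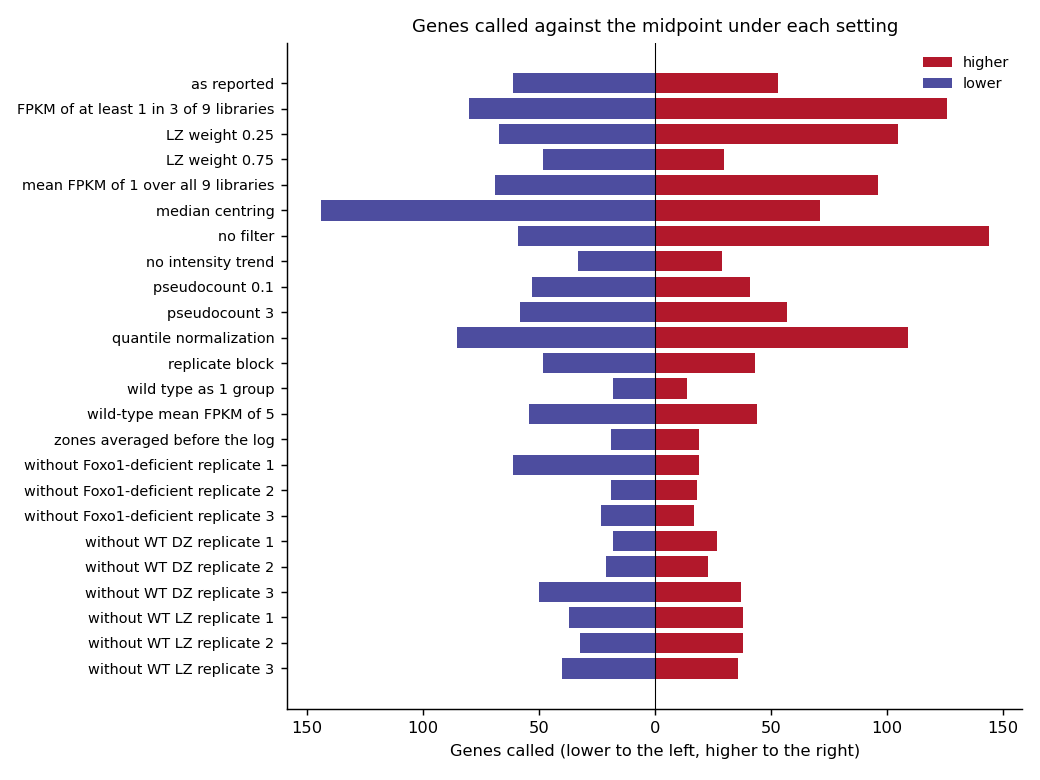
Number of genes called against the midpoint under the reported setting and the 23 alternatives, with genes called lower to the left of 0 and genes called higher to the right. The reported 53 and 61 become 144 and 59 with no level filter, 71 and 144 with median centring, and 14 and 18 with the wild-type libraries as 1 group.

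The position of the called genes against the zones is given as a description, since the same libraries chose them. The deficient mean was above both zone means for 52 of the 114, below both for 60 and between them for 2, Cd83 and Malat1. Among all 9524 tested genes the mean was above both for 36.5%, below both for 30.6% and between them for 32.9%. The 3 deficient libraries lay wholly outside the range of the 6 wild-type libraries for 99 of the 114 genes, 48 higher and 51 lower, and for 583 of all tested genes (6.12%), a contrast that the choice of called genes largely fixes. The zones themselves differed at 183 genes (1.92%), 134 higher in LZ and 49 higher in DZ, and 25 of the 114 were among them. Of the genes that rose, 15 were higher in LZ and 0 in DZ, and of those that fell, 5 were higher in LZ and 5 in DZ. The zone difference shares its estimate of the spread with the midpoint comparison.

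A stricter count asked that a gene be called in 1 direction against each zone alone. It held for 21 genes (0.22%), 11 higher and 10 lower, all of them among the 114. The 11 were Beta-s, Hbb-b2, Pla2g7, Emid1, Coro2b, Cd97, Rgs10, Abr, Ints4, Psap and Laptm5. The 10 were Foxo1, Gstt1, A130040M12Rik, Krt222, Ddt, Tmem106c, Shisa5, Pim1, Rgs13 and Psmb3. The deficient libraries enter both contrasts. The count was 11 and 8 without deficient replicates 2 and 3, 7, 6 and 10 without DZ replicates 1, 2 and 3, and 2, 3 and 6 without LZ replicates 1, 2 and 3.

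**Figure D3:**
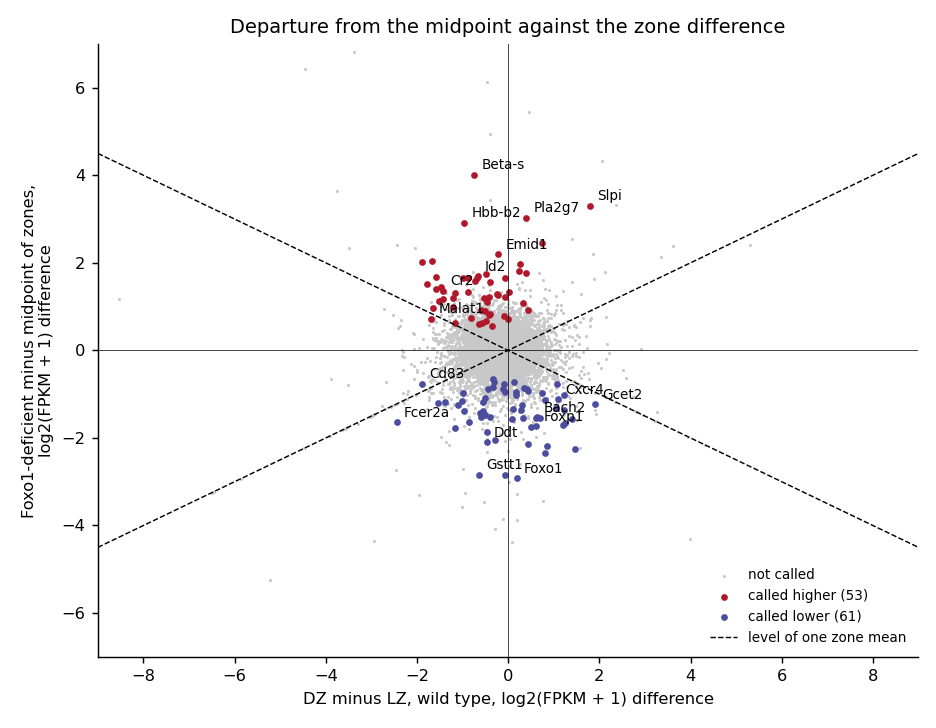
Each point is 1 of the 9524 tested genes, placed by the wild-type DZ minus LZ difference (x axis) and the Foxo1-deficient minus midpoint difference (y axis), both on the log2(FPKM + 1) scale; dashed lines mark the level of either zone mean. The 53 genes called higher and 61 called lower lie outside the dashed lines except Cd83 and Malat1, with Foxo1 the lowest and Beta-s the highest of them.

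The largest falls after Foxo1 were in genes of varied function. Gstt1, a glutathione transferase, was at 9.61, 4.05 and 16.5 in LZ, at 3.95, 6.77 and 5.55 in DZ, and at 0.32, 0 and 0 in deficient cells (-2.84, SE 0.37, adjusted p = 0.00922). A130040M12Rik, whose locus overlaps the entry Zfp808, was at 277, 291 and 255 in LZ, at 555, 467 and 431 in DZ, and at 106, 45.9 and 71.7 in deficient cells. Its deficient libraries were all under the lowest wild-type library, and it fell by 2.35 (SE 0.21, adjusted p = 0.00209). Krt222, a keratin-related gene, was at 5.74 ± 0.697 in LZ, 11.1 ± 1.39 in DZ and 1.1 ± 0.989 in deficient cells (-2.19, adjusted p = 0.00864). Gm14446, which has near-identical neighbours, was at 0.72, 0 and 0 in deficient cells, with no wild-type library under 1.41 (-2.25, adjusted p = 0.0116). These 4 genes stayed called without any 1 library.

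Further large falls kept their call in fewer of the fits without 1 library. Gdpd3, a phosphodiesterase of glycerophospholipids, was at 1.99, 0 and 8.75 in deficient cells and from 13.4 to 38.9 in wild type (-2.86, adjusted p = 0.0476), and of the fits without 1 library only that without deficient replicate 3 called it (adjusted p up to 0.117 in the others). Tmem106c, a membrane protein gene, fell to 0.812 ± 0.25 from 7.66 ± 3.43 in LZ and 6.30 ± 3.26 in DZ (-2.05), Dus4l, a tRNA dihydrouridine synthase, to 0.25, 0.09 and 0 (-1.87), and Plscr1, a phospholipid scramblase, to 0.34, 0 and 0 (-1.77). B3gnt5, a glycosyltransferase of glycolipids, fell to 0.675 ± 0.069 (-1.65), and Slc36a4, an amino acid transporter, to 0.46, 1.04 and 0 (-1.75). These 5 had adjusted p between 0.0209 and 0.0476. They stayed called in 3, 4, 5, 2 and 0 of the 9 fits without 1 library, in the order named, and the highest adjusted p among those fits was 0.157, for Slc36a4 without deficient replicate 3. All 3 deficient libraries were under all 6 wild-type libraries for each of them, which the rule for naming them required.

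The largest rises included genes of blood cells other than B cells. Beta-s, a beta-globin gene, was at 5.80, 10.2 and 20.1 in LZ, at 4.84, 9.71 and 4.48 in DZ, and at 110, 87.5 and 321 in deficient cells (4.02, SE 0.45, adjusted p = 0.00439). Hbb-b2, its close copy, was at 123 ± 77.2 in deficient cells, 19.6 ± 4.19 in LZ and 9.59 ± 2.07 in DZ (2.92, adjusted p = 0.00346). Reads of the globin copies cannot be assigned with certainty, Hbb-b2 also overlaps the entry Hbb-b1, and both genes belong to the erythroid marker list whose sum rose above. Cd68, a lysosomal glycoprotein of macrophages and on that marker list, was at 8.05, 6.37 and 17.2 in deficient cells, 6.09, 4.73 and 2.14 in LZ libraries, and 0.65, 0 and 0.54 in DZ libraries (2.03, adjusted p = 0.0299), and only the fit without LZ replicate 1 kept its call among those that leave out 1 library (adjusted p up to 0.116 in the others).

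Several other rises were in genes that myeloid cells are also known to express. Slpi, a secreted protease inhibitor, was at 15.4, 5.86 and 0.93 in LZ, at 26.2, 33.1 and 8.81 in DZ, and at 89.8, 151 and 96.7 in deficient cells (3.30, SE 0.59, adjusted p = 0.0256). Pla2g7, the plasma enzyme that breaks down platelet-activating factor, was at 14.2 ± 4.22 in deficient cells, 0.722 ± 0.88 in LZ and 1.30 ± 1.28 in DZ (3.03, SE 0.40, adjusted p = 0.01). Plbd1, a lysosomal phospholipase B-like protein, was at 9.55, 15.7 and 13.2 in deficient cells (2.03, adjusted p = 0.044). The call of Pla2g7 held without any 1 library, while that of Slpi held in 2 and that of Plbd1 in 1 of those 9 fits (adjusted p up to 0.102 and 0.153, both without deficient replicate 2). Mpeg1, a pore-forming protein of phagocytes, rose to 20.4 ± 2.76 from 10.5 ± 1.44 in LZ and 5.29 ± 0.771 in DZ (1.33, adjusted p = 0.0101). Psap, the precursor of the saposins that aid lysosomal lipid breakdown, rose to 101 ± 5.21 from 50 ± 1.29 and 38.1 ± 8.91 (1.21, SE 0.15, adjusted p = 0.00864), and Laptm5, a lysosomal membrane protein of blood cells, to 508 ± 37.3 from 309 ± 22.9 and 311 ± 34.3 (0.71, adjusted p = 0.0152). Mpeg1, Psap and Laptm5 also had clear levels in every wild-type library. The part that the higher macrophage, neutrophil and erythroid marker sums have in these rises was not tested.

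Large rises were also seen in genes that are on none of those marker lists. Some, such as Cd97 and Rgs10, are known in myeloid cells too, whose marker sums were 214.0 to 359.8 (macrophage) and 91.2 to 145.3 (neutrophil) in the same deficient libraries, and the part of those cells was not tested. Emid1, an extracellular matrix protein gene, was at 8.34, 5.61 and 6.96 in LZ, at 4.63, 7.06 and 5.93 in DZ, and at 42.8, 27.0 and 30.2 in deficient cells. The zones barely differed and each deficient library was above every wild-type one, with a difference of 2.20 (SE 0.21, adjusted p = 0.00252). Coro2b, an actin-binding coronin, rose to 9.02 ± 3.11 from 1.25 ± 0.312 and 1.74 ± 0.621 (1.98, adjusted p = 0.0107), and Cd97, an adhesion receptor coupled to G proteins whose locus overlaps that of Ddx39, to 8.66 ± 2.04 from 1.49 ± 0.191 and 2.04 ± 1.09 (1.82, adjusted p = 0.0149). Rgs10, a brake on G protein signalling, rose to 58.4 ± 19.8 from 14.2 ± 4.58 and 19.2 ± 6.37 (1.76, adjusted p = 0.0187). Tle3, a Groucho-type corepressor, rose to 13.2 ± 3.03 (1.74, adjusted p = 0.0322), and Abr, a regulator of small GTPases, to 37.6 ± 4.77 from 16.1 ± 2.75 and 13.7 ± 3.29 (1.30, adjusted p = 0.0126). The call of Emid1 and that of Coro2b held without any 1 library. That of Cd97 was lost without deficient replicate 3 (adjusted p = 0.0715), that of Rgs10 without deficient replicate 2 or 3 (adjusted p of 0.0662 and 0.0804), that of Abr without the same libraries (adjusted p up to 0.0615), and that of Tle3 in 7 of the 9 fits (adjusted p up to 0.116, without deficient replicate 1). Gm5779, a predicted gene likely to share sequence with a parent gene, was at 24.3 ± 2.72 (2.46, adjusted p = 0.0256), a call kept in 3 of the 9 fits.

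Called transcription factors of the B lineage moved in both directions. Foxp1, a forkhead relative that represses plasma cell genes, was at 15.7, 12.7 and 10.8 in LZ, at 23.6, 18.1 and 19.7 in DZ, and at 6.81, 2.65 and 3.88 in deficient cells. It fell by 1.73 (SE 0.25, adjusted p = 0.0117), below both zones, with -1.43 against LZ alone (adjusted p = 0.0569) and -2.04 against DZ alone (adjusted p = 0.00609). Bach2, a repressor that holds back plasma cell differentiation, was at 20 ± 3.63 in LZ, 31.3 ± 3.79 in DZ and 8.77, 5.09 and 11.3 in deficient cells (-1.52, SE 0.23, adjusted p = 0.0147). With the zones averaged before the log, the calls of Bach2 and Foxp1 were lost (adjusted p of 0.0588 and 0.0589). BC024582, an entry inside the Bach2 locus, fell as well (-2.15, adjusted p = 0.0408, kept in 2 of 9 leave-one-out fits), and since the strand of the counting is not stated its reads cannot be told apart from those of Bach2. Id2 and Id3, which bind E proteins and keep them from DNA, were higher. Id2 was at 7.78, 6.85 and 5.27 in LZ, at 4.07, 5.72 and 2.16 in DZ and at 19.3, 14.9 and 21.9 in deficient cells (1.70, SE 0.26, adjusted p = 0.0152), a call lost without deficient replicate 1 (adjusted p = 0.0517) or 3 (0.0715). Id3 was at 35.6 ± 2.32, 33.1 ± 1.93 and 60.5 ± 9.81 (0.79, adjusted p = 0.0228), a call kept in 3 of the 9 leave-one-out fits (adjusted p up to 0.102, without deficient replicate 2). Lmo2, a transcription cofactor high in germinal center cells, was at 28.1 ± 2.70 in LZ, 7.51 ± 0.761 in DZ and 45.3 ± 11.6 in deficient cells (1.53, SE 0.18, adjusted p = 0.00662).

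Of the 29 tested germinal center and B lineage factors, 2 rose (Id2, Id3) and 2 fell (Foxp1 and Rgs13), which is 13.8% against 1.2% of all tested genes. The list as a whole leaned higher. At an unadjusted p under 0.05 in limma 14 were higher and 2 lower, against 731 and 585 of all 9524 tested genes. Differences were positive for 22 and negative for 7 of the 29. The list's median was 0.37, against 0.038 over all tested genes, and 22 of the 29 lay above both zone means. Ebf1, which sets B cell identity, was at 36.9 ± 2.32 against 28.6 ± 0.853 and 19.1 ± 3.19 (0.64, adjusted p = 0.0704), Mef2c at 63.6 FPKM (0.46, adjusted p = 0.138), and Pax5, the B lineage commitment factor, at 110 (-0.04, adjusted p = 0.917). Of 10 AP-1, Batf and Irf factors Bach2 alone was called. Batf, a partner of AP-1 proteins, varied within LZ from 12.7 to 46.8 and was at 4.65 ± 0.20 in deficient cells (-1.20, adjusted p = 0.302), and Jund was at 15.9 ± 6.86 (-0.76, adjusted p = 0.237). Irf4, which drives plasma cell differentiation, was at 6.86 ± 2.44, between 9.74 ± 1.61 and 3.22 ± 2.02. The list's median was 0.06 and became -0.01 under median centring, -0.14 with LZ weighted 0.75 and -0.35 over members with a wild-type mean of at least 5.

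**Figure D4:**
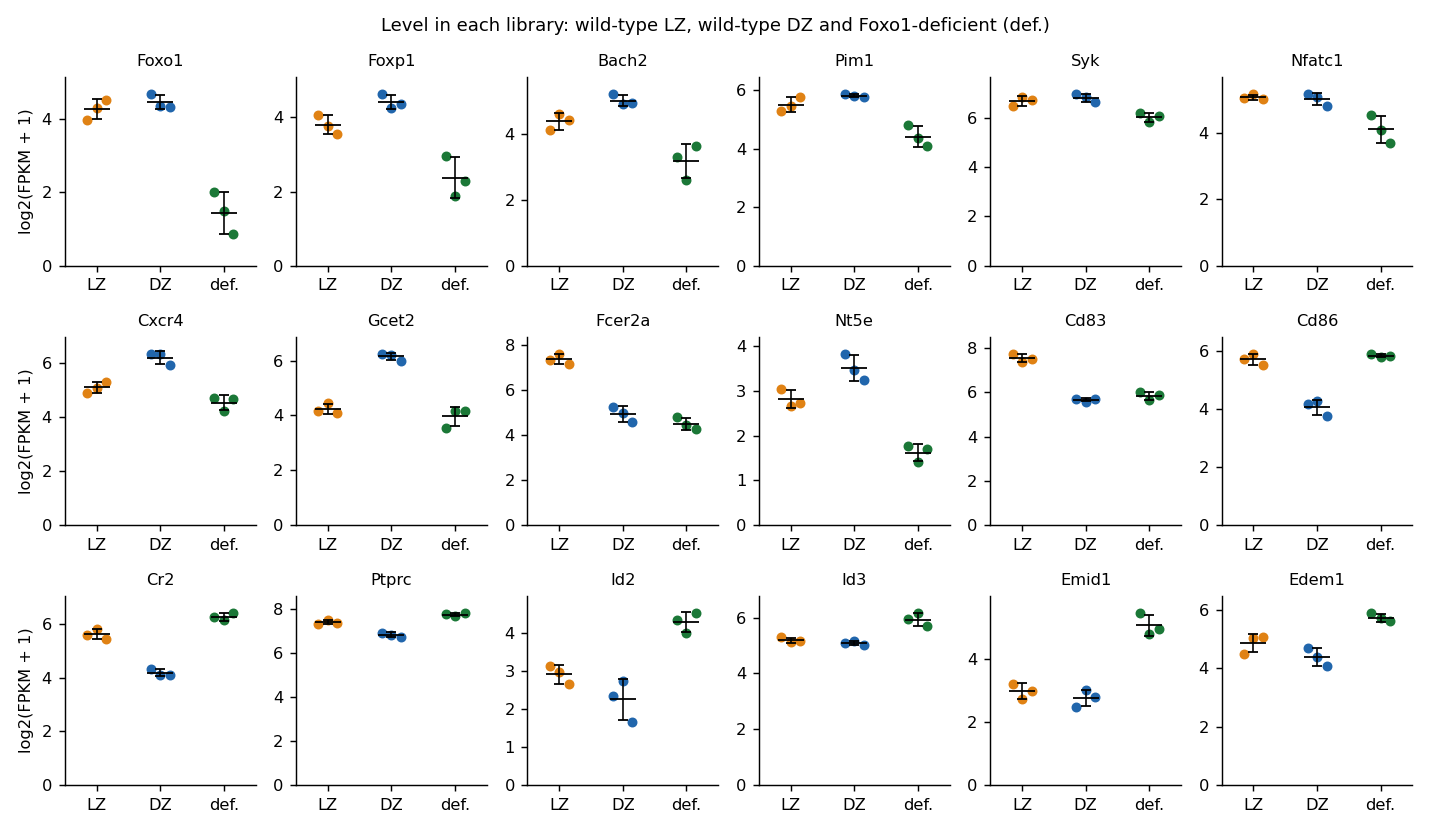
log2(FPKM + 1) of 18 genes in each library (points) with the group mean (wide bar) and SD (whiskers, n = 3) for wild-type LZ, wild-type DZ and Foxo1-deficient cells (def.); each panel's axis starts at 0. Deficient libraries lie below both zones for Foxo1, Foxp1, Bach2, Pim1 and Nt5e, at the level of a single zone for Gcet2, Fcer2a, Cd83 and Cd86, and above both for Cr2, Ptprc, Id2, Id3, Emid1 and Edem1.

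Dark zone genes were split. Of 14 tested, 3 fell, Foxp1, Gcet2 and Cxcr4 (21.4%, against 1.2% of all tested genes), and none rose, with 1 higher and 4 lower at an unadjusted p under 0.05 in limma. Cxcr4, the receptor that draws B cells into the dark zone, was at 28.9, 33.0 and 37.9 in LZ, at 78.5, 79.5 and 59.6 in DZ and at 24.7, 17.6 and 24.6 in deficient cells. Each deficient library was under the lowest LZ library, and the difference was -1.11 from the midpoint (SE 0.17, adjusted p = 0.0148), -1.66 from DZ (adjusted p = 0.00277) and -0.56 from LZ, which did not pass (adjusted p = 0.247). The midpoint call of Cxcr4 was lost without deficient replicate 2 (adjusted p = 0.057), and with LZ weighted 0.75 (-0.84, adjusted p = 0.0626) or the wild-type libraries as 1 group (0.209), and the wild-type gates used its protein. Gcet2, an adaptor of germinal center B cells, was at 18.0 ± 2.38 in LZ, 70.1 ± 6.79 in DZ and 10.8, 17.0 and 17.1 in deficient cells (-1.22, SE 0.18, adjusted p = 0.0121). Its deficient libraries were far from DZ (-2.18, adjusted p = 0.00101) and overlapped those of LZ (-0.27, adjusted p = 0.623). The midpoint call of Gcet2 was lost with LZ weighted 0.75 (-0.75, adjusted p = 0.105) or the wild-type libraries as 1 group (0.409). The fit with 1 group counts the zone difference as spread and left the differences of Cxcr4 (-1.11) and Gcet2 (-1.22) unchanged. Other dark zone genes were not called, and 9 of the 14 lay between the zones. Polh, the error-prone polymerase of hypermutation, was at 25.4, 30.1 and 30.0 (0.23, adjusted p = 0.581), and Cdc25b, a phosphatase that starts mitosis, at 33.0, 21.6 and 22.4 (-0.71, adjusted p = 0.0997). The list's median was -0.03, or 0.19 with LZ weighted 0.75.

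Light zone genes were split in another way. Of 29 tested, 2 rose and 2 fell (13.8%), 24 lay between the zones, and the median was -0.20, or 0.19 with DZ weighted 0.75. Cr2, the complement receptor CD21, was at 47.4, 55.7 and 42.6 in LZ, at 19.3, 16.3 and 16.3 in DZ and at 76.3, 69.6 and 83.8 in deficient cells. It was above every wild-type library and rose by 1.37 (SE 0.14, adjusted p = 0.003), a call kept without any 1 library. Cd86, a costimulatory ligand for T cells whose protein was used in the gates, was at 51.7 ± 7.01, 15.8 ± 2.97 and 56.5 ± 2.05 (0.96, SE 0.15, adjusted p = 0.0183), and its call was lost without any 1 of the deficient libraries (adjusted p of 0.0608, 0.0696 and 0.0715), and with LZ weighted 0.75 (0.55, adjusted p = 0.16). Fcer2a, the low-affinity IgE receptor CD23, went the other way. It was at 162, 195 and 143 in LZ, at 37.1, 30.8 and 22.7 in DZ and at 26.7, 20.9 and 18.5 in deficient cells (-1.65, SE 0.18, adjusted p = 0.00439), called without any 1 library. Cd83, a surface protein of activated B cells, was at 185 ± 24.2, 49.3 ± 2.46 and 56.1 ± 6.79 (-0.77, SE 0.13, adjusted p = 0.0203). The call of Cd83 was lost without deficient replicate 2 (adjusted p = 0.0863) or 3 (0.0804) or DZ replicate 1 (0.0621) or 2 (0.0502), and with LZ weighted 0.25 (-0.29, adjusted p = 0.341). With the wild-type libraries as 1 group, limma called none of Cr2, Cd86, Fcer2a and Cd83 (adjusted p of 0.204, 0.452, 0.367 and 0.584). That fit counts the gap between zones as spread, so lost calls are likely for genes with a wide gap. The differences stayed at 1.37, 0.96, -1.65 and -0.77. So Cd86 had a deficient level near that of LZ, and Fcer2a and Cd83 one near that of DZ, while Cr2 exceeded both.

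The 15 rises that were higher in LZ than in DZ included further genes of this kind, chosen here after their values were seen. Fam55b was at 15.2 ± 1.84 in LZ, 4.90 ± 1.1 in DZ and 25.5 ± 2.61 in deficient cells (1.45, adjusted p = 0.00735), and AI848285 at 9.03 ± 2.41, 2.29 ± 0.398 and 17.4 ± 3.80 (1.68, adjusted p = 0.01). The noncoding RNA Malat1, retained in the nucleus, was at 208 ± 36.8, 63.4 ± 6.10 and 190 ± 6.56 (0.73, adjusted p = 0.0246), so its deficient mean lay just under that of LZ. Lta and Tnf, adjacent cytokine genes of the TNF family, were at 56.1 ± 20.1 and 21.0 ± 2.1 in deficient cells (1.40 and 1.18, adjusted p of 0.0228 and 0.0316). The calls of Fam55b and AI848285 held without any 1 library, and those of Malat1, Lta and Tnf in 3, 4 and 1 of the 9 fits.

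Called genes of B cell receptor signalling moved both ways, while most members of the list leaned higher. Of 29 tested, 3 rose (Cr2, Ptprc and Cd22) and 2 fell (Syk and Nfatc1), which is 17.2% against 1.2% of all tested genes. At an unadjusted p under 0.05 in limma 11 were higher and 3 lower. Differences were positive for 23 and negative for 6 of the 29, and the median was 0.20. Ptprc, the phosphatase CD45 whose alleles mark the donors, was at 167 ± 11.5 in LZ, 112 ± 8.69 in DZ and 216, 202 and 220 in deficient cells (0.64, SE 0.10, adjusted p = 0.0189), a call lost without any 1 deficient library or DZ replicate 2 (adjusted p up to 0.0804). The alleles CD45.1 and CD45.2 differ in sequence and the donors differ in them, and their part in the Ptprc value was not tested. Cd22, an inhibitory coreceptor, was at 181 ± 17.0 in deficient cells against 176 ± 20.1 in LZ and 77.5 ± 7.5 in DZ (0.63, adjusted p = 0.0382). Syk, the kinase next to the receptor, fell from 102 ± 13.1 and 111 ± 12.0 to 64.1 ± 8.23 (-0.72, SE 0.14, adjusted p = 0.0336), and Nfatc1, a calcium-dependent transcription factor, from 32.9 ± 1.79 and 31.7 ± 4.07 to 16.7 ± 5.06 (-0.95, SE 0.19, adjusted p = 0.0408). The deficient libraries of Syk and of Nfatc1 were all below wild type, those of Cd22 overlapped LZ. These calls were kept in 0 (Cd22), 2 (Syk) and 1 (Nfatc1) of the 9 fits without 1 library, with adjusted p up to 0.122, 0.133 and 0.135. The receptor's own chains had differences of 0.03 (Cd79a, adjusted p = 0.937) and -0.11 (Cd79b, adjusted p = 0.721).

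T cell help and antigen presentation genes gave few calls. Of 25 receptors and ligands of T cell help, Cd86 rose and none fell, with 9 higher and 1 lower at an unadjusted p under 0.05, and the median was 0.10, or -0.08 with LZ weighted 0.75. Icosl, the ligand of the T cell receptor ICOS, was at 34.2 FPKM (0.78, adjusted p = 0.0982). Sh2d1b1, a SLAM-family adaptor, was at 4.41, 4.73 and 8.06 in deficient cells and at most 3.53 in wild type (1.76, adjusted p = 0.0813). Cd40, the receptor of the main T cell help signal, was at 25.6 ± 4.72, between 40.3 ± 4.27 in LZ and 8.77 ± 0.709 in DZ (0.40, adjusted p = 0.302). Of 18 genes of MHC class II presentation limma called 0, with 5 higher and 0 lower at an unadjusted p under 0.05, and 13 of the 18 lay between the zones. Their median was 0.14, or -0.03 with LZ weighted 0.75. Ctsb, a lysosomal protease, was at 18.3 ± 4.24 against 10.3 ± 1.41 and 8.22 ± 1.86 (0.91, adjusted p = 0.079), and Ifi30, a lysosomal thiol reductase, at 187 ± 6.72 against 229 ± 22.9 and 83.1 ± 11.6 (0.44, adjusted p = 0.128). The class II chain H2-Aa was at 943 FPKM, with a difference of 0.07 (adjusted p = 0.798).

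NF-kB and CD40 response genes were mostly between the zones, 20 of 30, with 1 rise and 1 fall (6.67%). Nfkbiz, an inducible nuclear partner of NF-kB, was at 4.74, 6.00 and 6.76 in deficient cells against 3.57 ± 0.934 and 0.949 ± 0.136 (1.19, adjusted p = 0.0475). The call of Nfkbiz was lost without each library in turn (adjusted p of 0.0521 to 0.165). The fall was that of Cd83. Bcl2a1b, an inhibitor of apoptosis with near-identical copies, was at 20.6 ± 11 (-0.97, adjusted p = 0.145), and Tnfaip3, a brake on the pathway, at 3.75 FPKM (-0.67, adjusted p = 0.153). The median was -0.26, and 0.16 with DZ weighted 0.75. Tnfrsf1b, a TNF receptor gene named after its values were seen, rose to 6.15, 6.08 and 12.0 from at most 2.17 in wild type (1.65, adjusted p = 0.0203, kept in 5 of 9 leave-one-out fits). Myeloid cells express this receptor as well, its highest value was in deficient replicate 3, where the macrophage marker sum was highest too (359.8), and the part of such cells was not tested.

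No gene of the PI3K, Akt and mTOR list was called among 28 tested. At an unadjusted p under 0.05 in limma 4 were higher and 0 lower, against 731 and 585 of all 9524 tested genes. The list's median was 0.22, with 18 of 28 above both zone means. Pik3cg, a catalytic subunit of PI3K, was at 14 ± 2.13 in deficient cells against 6.69 ± 0.848 and 8.91 ± 1.08 (0.77, SE 0.18, adjusted p = 0.079), and Inpp5d, the lipid phosphatase SHIP that opposes PI3K, at 53.2 ± 5.73 against 38.8 ± 2.61 and 29.7 ± 5.83 (0.64, adjusted p = 0.0813). Of 32 listed Foxo target genes, 20 were tested and Cxcr4 was the only call (5.0%). The median of the targets was 0.02 and became -0.05 under median centring. Klf2, a quiescence factor and a known Foxo1 target, was at 3.93, 5.50 and 2.57 in deficient cells against 1.94 ± 0.611 and 0.846 ± 0.699 (1.1, adjusted p = 0.155), and Txnip, a regulator of glucose uptake, at 30.9 ± 2.53 against 18.2 ± 5.85 and 20.1 ± 5.34 (0.70, adjusted p = 0.198).

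Pim1, a kinase that supports survival and growth, was the only call among 24 apoptosis regulators, whose median was -0.01, or 0.09 with DZ weighted 0.75. It was at 37.8, 42.8 and 53.9 in LZ, at 57.3, 55.1 and 53.6 in DZ and at 26.9, 19.6 and 16.0 in deficient cells (-1.24, SE 0.18, adjusted p = 0.0117). It also fell against LZ alone (-1.09, adjusted p = 0.0426) and DZ alone (-1.40, adjusted p = 0.00767), and its midpoint call was lost without deficient replicate 2 (adjusted p = 0.0539). The fall of Pim1 and that of Gimap3, a GTPase gene of lymphocytes, are shown with sequence because their promoters hold the forkhead core motif GTAAACA. The search covered 250 bases before to 50 bases after each RefSeq gene start, on either strand, in assembly GRCm38.p6, a build other than that of the files. The motif is in capitals, the rest in lower case, 5′ to 3′ on the strand of the gene.
Pim1, chr17:29492990-29493046, plus strand: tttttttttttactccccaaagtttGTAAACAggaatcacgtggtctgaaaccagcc
Gimap3, chr6:48771067-48771101, minus strand: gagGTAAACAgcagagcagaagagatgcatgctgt
The motif starts 70 bases before the start of Pim1 and 247 bases before that of Gimap3. Among genes called lower with a promoter in the table, 2 of 49 held it (4.08%), against 233 of 7625 tested genes (3.06%), shares close to each other. For genes called higher the check is void, since only 41 of 53 matched the table. A match of letters is a description and says nothing of binding. Gimap3 was at 9.43 ± 1.95 against 35.5 ± 8.21 in LZ and 16.3 ± 5.76 in DZ (-1.25, adjusted p = 0.0322), a call kept in 1 of 9 leave-one-out fits, and its related neighbours make its reads uncertain.

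Cell cycle lists held no calls. Of 30 S phase genes limma called 0, with 0 higher and 6 lower at an unadjusted p under 0.05, and 26 of 30 differences were negative, with a median of -0.19. Mcm6, a subunit of the replicative helicase, was at 77.5 ± 6.53 against 97.0 ± 7.74 and 118 ± 8.65 (-0.46, adjusted p = 0.0965), and Mcm3, of the same helicase, at 49.7, 61.5 and 51.3 (-0.38, adjusted p = 0.248). Of 32 genes of G2 and M phase 0 were called, with 3 higher and 1 lower at an unadjusted p under 0.05. Their median was 0.09, and -0.07 with DZ weighted 0.75, and 19 of 32 lay between the zones. Cenpf, a kinetochore protein, was at 11.5 ± 0.892 against an LZ mean of 5.63 ± 0.784 and a DZ mean of 10.8 ± 1.26 (0.50, adjusted p = 0.234), and Mki67, a marker of dividing cells, at 125 ± 3.62 against 83.3 ± 16.1 and 119 ± 3.56 (0.33, adjusted p = 0.296). Of 13 D cyclins, Cdk partners and inhibitors 0 were called, with 1 higher and 3 lower at an unadjusted p under 0.05. Ccnd2, a D-type cyclin, was at 13.9, 15.2 and 13.8 in LZ, at 0.61, 0.08 and 0.39 in DZ and at 0.64, 2.76 and 1.94 in deficient cells. It stood near DZ, the midpoint lay far from either zone, and the difference of -0.79 did not pass (adjusted p = 0.277), nor did 0.09 with LZ weighted 0.25 (0.916), while -1.66 with LZ weighted 0.75 did (0.0414). Cdk4, the kinase partner of D cyclins, was at 63.2 ± 4.92 against 85.5 ± 7.30 and 71.3 ± 2.19 (-0.30, adjusted p = 0.268).

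**Figure D5:**
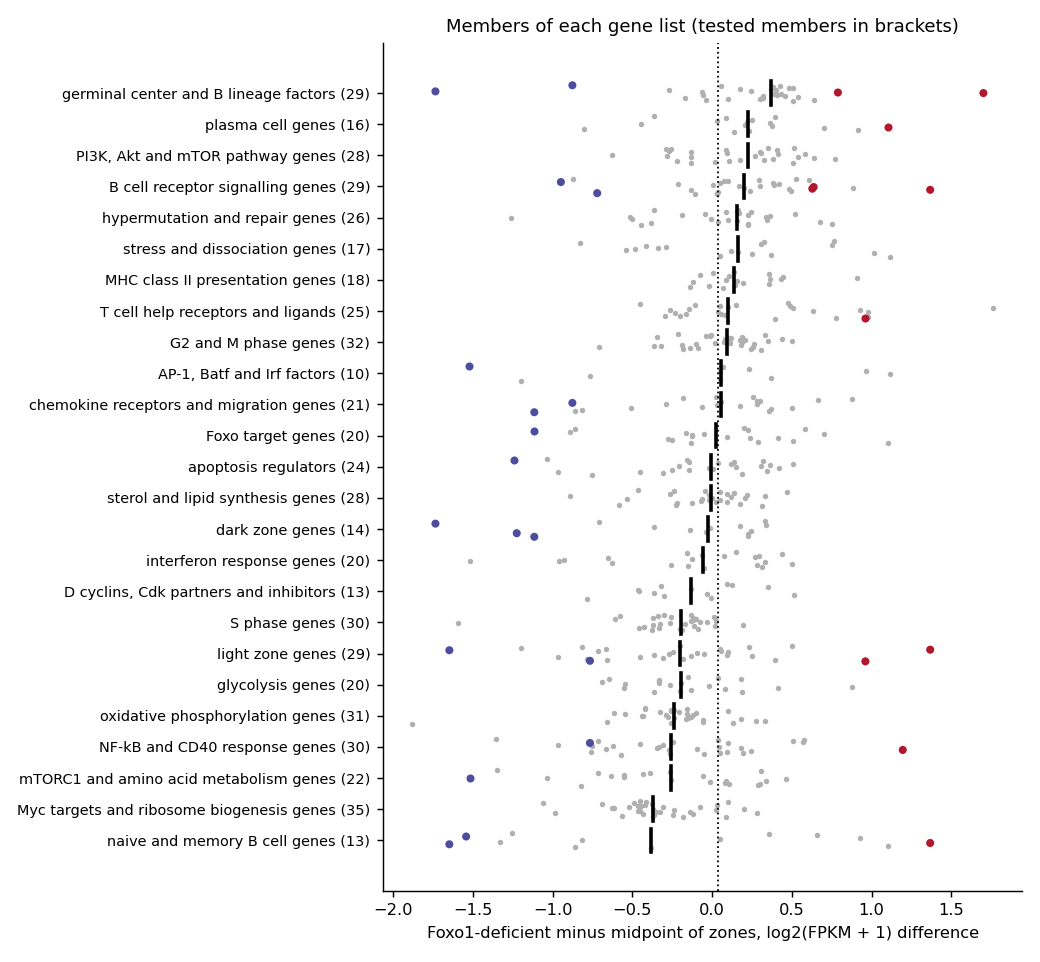
Foxo1-deficient minus midpoint difference (x axis, log2(FPKM + 1) scale) of each tested member of the 25 gene lists, 1 point per gene, red where called higher, blue where called lower and grey otherwise; the black bar is the list's median and the dotted line the median of all tested genes (0.038). Medians run from -0.38 (naive and memory B cell genes) to 0.37 (germinal center and B lineage factors), and most lists hold few or no called members.

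Growth and metabolism lists leaned lower than the midpoint but gave a single call. Of 35 Myc targets and ribosome biogenesis genes 0 were called, with 0 higher and 11 lower at an unadjusted p under 0.05 in limma, 29 negative differences and a median of -0.37. Myc itself was at 10.9 ± 2.28, between 23.7 ± 2.26 in LZ and 6.38 ± 1.88 in DZ (-0.18, adjusted p = 0.728). Hspd1, a mitochondrial chaperone, was at 49.9 ± 5.68 against 86.2 ± 10.6 and 57.4 ± 1.42 (-0.49, adjusted p = 0.106), and Eif4a1, the helicase of translation initiation, at 149 ± 17.8 against 242 ± 12.1 and 163 ± 14.5 (-0.42, adjusted p = 0.13). Of 31 oxidative phosphorylation genes 0 were called, with 0 higher and 6 lower at an unadjusted p under 0.05, 26 negative differences and a median of -0.24. Cox4i1, of cytochrome oxidase, was at 253, 237 and 142 in deficient cells against 302 ± 21.2 and 328 ± 54.2 (-0.61, adjusted p = 0.156), and Cyc1, cytochrome c1, at 32.9 ± 2.74 (-0.55, adjusted p = 0.171). Of 20 glycolysis genes 0 were called, with 1 higher and 6 lower at an unadjusted p under 0.05 and a median of -0.20. Ldha, lactate dehydrogenase, was at 92.3 ± 17.1 against 176 ± 8.38 and 118 ± 15.6 (-0.65, adjusted p = 0.0664), and Pgam1, a phosphoglycerate mutase, at 47.3 ± 13.9 against 78.0 ± 1.20 and 72.2 ± 8.53 (-0.69, adjusted p = 0.0932). The medians of these lists were negative under every alternative setting of the midpoint comparison. Against DZ alone they were 0.04 (Myc targets and ribosome biogenesis), -0.27 (oxidative phosphorylation) and -0.03 (glycolysis). Against LZ alone they were -0.73, -0.2 and -0.33. Of the 35 Myc targets and ribosome biogenesis genes, 18 lay between the zones. Deficient replicate 3, the library with most zeros and the lowest relative depth, had the lowest deficient value of Cox4i1, Ldha and Pgam1.

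The call among 22 mTORC1 and amino acid metabolism genes was Asns, asparagine synthetase. It was at 7.32, 7.27 and 10.9 in LZ, at 5.50, 4.27 and 5.87 in DZ and at 2.15, 2.41 and 0.73 in deficient cells (-1.52, SE 0.28, adjusted p = 0.0284). All deficient libraries were under all wild-type ones, but the call was lost without each library in turn (adjusted p of 0.0562 to 0.0835). Slc7a5, a transporter of large amino acids, was at 9.08 ± 2.66 against 24.1 ± 3.26 and 11.1 ± 1.32 (-0.82, adjusted p = 0.0994). At an unadjusted p under 0.05 the list held 0 higher and 9 lower genes, with a median of -0.26. The list's median was -0.43 against LZ alone and -0.08 against DZ alone. Gars, a glycyl-tRNA synthetase named after its values were seen, fell to 24.9 FPKM (-0.88, adjusted p = 0.0152), a call lost without deficient replicate 2 or 3 (adjusted p up to 0.0707). Of 28 sterol and lipid synthesis genes 0 were called, with 1 higher and 1 lower at an unadjusted p under 0.05. Ebp, a sterol isomerase, was at 3.17 ± 1.31 (-0.89, adjusted p = 0.113) and Scd1, a fatty acid desaturase, at 77.3 ± 6.74 (0.47, adjusted p = 0.115), with a list median of -0.01, or 0.10 with DZ weighted 0.75.

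Genes that mark other B cell fates also moved singly. Nt5e, the ecto-nucleotidase CD73 of memory B cells, was at 7.25, 5.34 and 5.65 in LZ, at 13.1, 9.97 and 8.47 in DZ and at 2.39, 1.64 and 2.24 in deficient cells. It lay below both zones (-1.54, SE 0.22, adjusted p = 0.0117), and its call was lost without deficient replicate 2 (adjusted p = 0.0539). With Fcer2a (lower) and Cr2 (higher) it made 3 calls among 13 tested naive and memory B cell genes (23.1%), whose median was -0.38 and became 0.20 with an FPKM of at least 1 in 3 of the 9 libraries as the filter. Edem1, which passes misfolded proteins to degradation, was the only call among 16 plasma cell genes (6.25%). It was at 21.5, 31.5 and 32.4 in LZ, at 25, 20 and 15.9 in DZ and at 57.6, 51.1 and 47.8 in deficient cells (1.1, SE 0.19, adjusted p = 0.0203), a call lost without any 1 deficient library or DZ replicate 2 (adjusted p up to 0.0754). Igj, the joining chain of secreted IgM and IgA, was at 254 ± 59.6 against 88.8 ± 16.2 and 200 ± 42.7 (0.91, adjusted p = 0.0589). Igj passed under quantile normalization (1.05, adjusted p = 0.0064), median centring (0.031) and LZ weighted 0.75 (1.2, adjusted p = 0.0283). The median of the plasma cell list was 0.22.

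Rgs13, which dampens chemokine receptor signals in germinal center B cells, was at 94.3 ± 13.5 in LZ, 87.5 ± 10.9 in DZ and 44.6, 48.1 and 54.0 in deficient cells (-0.88, SE 0.14, adjusted p = 0.0161). The zones were alike in mean and the deficient libraries all lower, with a call that was lost without deficient replicate 1 (adjusted p = 0.0562) or 2 (0.0684). Rgs13 and Cxcr4 were the 2 calls among 21 chemokine receptors and migration genes (9.52%). S1pr2 and Cxcr5, receptors that hold B cells in the follicle center and the follicle, had differences of 0.37 (adjusted p = 0.341) and 0.36 (adjusted p = 0.305).

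Repair, interferon and stress lists held no calls in limma. Of 26 hypermutation and repair genes 2 were higher and 2 lower at an unadjusted p under 0.05, with a median of 0.16. Among all 9524 tested genes 731 were higher and 585 lower at that level. Rev1 and Rev3l, of translesion synthesis, were at 26.8 ± 3.81 against 19.9 ± 2.99 and 12.1 ± 2.42 (0.75, adjusted p = 0.081) and at 19.5 ± 3.39 against 11.4 ± 2.91 and 12.3 ± 1.26 (0.68, adjusted p = 0.143). Of 20 interferon response genes 1 was higher and 3 lower at that level, with Ifi35 at 7.66 ± 2.43 (-0.96, adjusted p = 0.153) and Stat2 at 13.2 ± 0.793 (0.50, adjusted p = 0.281). Of 17 stress and dissociation genes 4 were higher and 6 lower. Hspa8, a heat shock cognate chaperone, was at 584 ± 57.2 against 867 ± 58.2 and 695 ± 26.3 (-0.41, adjusted p = 0.0823), and Btg2, an early response gene, at 13.4 ± 4.32 (-0.83, adjusted p = 0.183).

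Some called genes were neighbours. Within 100000 bases of each other lay 12 pairs on 6 chromosomes, named here after their values were seen. A stretch of chromosome 10 from 75233978 to 75412391 (mm9) held 5 of the called genes, 4 lower and 1 higher. Ddt, a tautomerase of the Mif family, was at 52.4, 49.7 and 86.1 in LZ, at 42.9, 45.6 and 42.1 in DZ and at 7.17, 21.9 and 8.89 in deficient cells (-2.09, SE 0.30, adjusted p = 0.0121). Mif, a cytokine gene with tautomerase activity, was at 201 ± 24.1, 99.7 ± 12.0 and 62.8 ± 9.37 (-1.16, SE 0.14, adjusted p = 0.00662). Both were below every wild-type library. Gstt1, described above, and Gstt2 (-1.17, adjusted p = 0.0189) lie between them, and so does Gstt3, which was not called (-1.1, adjusted p = 0.218). Reads of the glutathione transferase copies may be shared. Beyond Mif, Derl3, Smarcb1 and Chchd10 were not called (adjusted p of 0.693, 0.745 and 0.577), and Vpreb3, a protein bound to immature antibody chains, rose to 156 ± 37.9 from 68.5 ± 6.14 and 93.4 ± 6.28 (0.93, adjusted p = 0.0209). The call of Mif held without any 1 library, that of Ddt was lost without deficient replicate 3 (adjusted p = 0.0527), and those of Gstt2 and Vpreb3 held in 4 and 2 of the 9 fits.

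The other neighbouring pairs were Gimap3 and Gimap7, Arid5a and Neurl3, and Bach2 and BC024582, all lower, and Beta-s and Hbb-b2 and the pair Lta and Tnf, all higher. Gimap7, a GTPase gene of lymphocytes, fell to 7.38 ± 3.63 from 25.5 ± 3.70 and 17.6 ± 1.69 (-1.48, adjusted p = 0.0183, kept in 4 of 9 leave-one-out fits). Neurl3, a ubiquitin ligase gene, fell to 8.20 ± 3.59 from 21.9 ± 4.43 and 27.4 ± 4.28 (-1.54, adjusted p = 0.0198, kept in 4 of 9). Of the 114 called genes, 13 overlap another entry, and with the strand of the counting not stated, reads of overlapping genes on opposite strands cannot be told apart.

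Further falls that held without any 1 library were those of Shisa5 and Man1a. Shisa5, a membrane protein of the endoplasmic reticulum, was at 92.5 ± 14.5 in LZ, 60.5 ± 11.6 in DZ and 27.4 ± 7.71 in deficient cells (-1.44, SE 0.19, adjusted p = 0.01), below each zone by test. Man1a, a mannosidase that trims N-glycans, was at 29.0 ± 3.94, 14.3 ± 2.82 and 7.22 ± 1.35 (-1.38, SE 0.19, adjusted p = 0.0106). Smaller shifts at high level were those of Psmb3, a proteasome subunit, which fell to 58.3 ± 10.6 from 103 ± 3.95 and 96.1 ± 8.52 (-0.77, adjusted p = 0.0226, kept in 2 of 9 leave-one-out fits), and of Ms4a1, the B cell protein CD20, which rose to 648 ± 42.1 from 499 ± 49.9 and 389 ± 9.23 (0.56, adjusted p = 0.0256, kept in 1 of 9).

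The level filter had no visible step at its edge. The 131 genes just inside it (wild-type mean of 1 to 1.1) had a median deficient FPKM of 1.26, and the 136 just outside (0.9 to 1) one of 1.27. Among the 114 called genes, 24 had a wild-type mean under 5, and 7 had a deficient library listed at 0.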

How the data were processed

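RNA from 9 sorted germinal center B cell libraries, 3 per group, was extracted with TRIzol, prepared with NEBNext Ultra kits and sequenced on an Illumina HiSeq, per the labels' protocols. The deposited values are FPKM per gene, made by the authors with TopHat2 2.0.8 and Cufflinks 2.1.1 on mm9, per the submitters' processing notes. Of 23700 entries per table, 716 entries of 250 repeated symbols and 7 genes with a failed estimate were left out. Total reads and strand setting are not given in the sources used here; relative depth (0.82 to 1.09) was estimated from the Cufflinks confidence intervals, read as 2 SD of a Poisson count. FPKM are not counts, so no count test was used.

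From these, log2(FPKM + 1) was fitted with limma 3.58.1 in R 4.3.3 (3 group means, intensity trend), and the contrast was deficient minus 0.5 of LZ minus 0.5 of DZ. Tests were two-sided and adjusted by Benjamini-Hochberg over 9524 genes, with calls under 0.05. Fold differences of low genes are understated on this scale. Tables and plots used Python 3.11.15, pandas 2.3.3 and matplotlib 3.10.9, and the scripts were tested on simulated data. Coordinates are mm9, and promoters come from RefSeq GRCm38.p6.

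The comparison, the 25 gene lists and the 6 marker lists were chosen with earlier results of these data known. Genes were named by rule: the Foxo and sort genes, the 14 largest non-overlapping calls in each direction, the 8 in each direction farthest outside both zones, and up to 4 called members per list, or the 2 of smallest p where fewer than 2 were called. That gave 78 genes, and others were chosen after their values were seen. The 23 alternatives changed the filter, pseudocount, scaling, zone weight, variance model, grouping or block, or left out 1 library.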

Additional observations from a re-analysis of the deposited data

Results flagged for a closer look

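Signal was also present among genes that the level filter left out. Of the genes with a wild-type mean FPKM under 1, 155 were at 1 or more in all 3 deficient libraries. Of these 155, 88 were above every wild-type library in all 3 deficient ones. The highest was Lyz2, the lysozyme of macrophages and granulocytes, at 51.64, 61.21 and 126.71 in deficient cells and at most 0.17 in wild type. S100a9, a calcium-binding protein of neutrophils and monocytes, was at 52.54, 56.55 and 80.46 and at most 2.54 in wild type. S100a8, its partner, was at 21.05, 54.45 and 44.94, Tyrobp, an adaptor of myeloid receptors, at 19.33, 21.8 and 23.86, and S100a4 at 20.14, 14.55 and 25.62, all listed at 0 in the 6 wild-type libraries. Plac8 was at 22.01, 14.35 and 30.36 against at most 3.18. These genes were chosen after their values were seen, and no test was made on them. The separation of the 88 from wild type is largely fixed by their choice, which asked for a low wild-type mean and higher deficient values.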

How the results depend on the processing

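Against the reported 114 calls (53 higher, 61 lower) and 21 calls against both zones, the counts moved as follows. An FPKM of at least 1 in 3 of 9 libraries as the filter gave 206 (126 and 80) and 71 against both zones. A mean of 1 over all 9 libraries gave 165 with 96 higher and 53 against both zones, and no filter gave 203 with 144 higher and 92 against both. Median centring gave 215 with 144 lower and 46 against both, and quantile normalization 194 with 109 higher and 49 against both. With LZ weighted 0.25 there were 172 (105 and 67), and with LZ weighted 0.75 there were 30 higher. Without the intensity trend there were 62 (29 and 33), with the wild-type libraries as 1 group 32 (14 and 18), and with the zones averaged before the log 38 (19 and 19). Leaving out 1 library gave 37 to 87 calls, 17 to 38 higher, 18 to 61 lower and 2 to 25 against both zones. The cause of these shifts was not tested. Ccnd2, not called at -0.79, changed sign to 0.09 with LZ weighted 0.25 and was called at -1.66 with LZ weighted 0.75 (adjusted p = 0.0414).

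Same-numbered libraries had deviations correlated at -0.083 to 0.093, and differently numbered ones at -0.115 to 0.11. These values show no sign of pairing by number. They cannot exclude that same-numbered libraries share a recipient or a preparation. The replicate block gave 91 calls (43 and 48) and 16 against both zones. Among the 78 named genes, 9 of 45 calls were lost and 3 gained under it, Igj among the latter (adjusted p = 0.00663). With 3 libraries per group and no stated read totals, small differences and low genes are measured poorly, and genotype and gate cannot be told apart.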
